A study of Mus musculus with 10 samples.

Results

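The mitochondrial respiratory chain and ATP synthase are described here by the mRNA of their nuclear-coded subunits in mouse liver. Members were the 90 of 21193 rows of the deposited gene table whose symbols start with Nduf, Uqcr, Atp5 or Cox4 to Cox8, or are Sdha, Sdhb, Sdhc, Sdhd or Cyc1, together with all their probes on the arrays. Probes were found for 89 members, and 85 were tested. RNA of liver from 10 male C57BL/6NCrSlc mice was measured on 10 one-colour Agilent microarrays (Cy3, 500 ng of RNA each). All 10 mice ate a diet high in cholesterol for 4 weeks; 5 of them, called mulberry, also received mulberry leaf extract as their drinking water, and the 5 called control did not, so no group here shows liver on ordinary chow. The labels give neither the age of the mice nor the dose of the extract, and stated no pairing between the numbers 1 to 5 of the groups.

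The chain lies in the inner mitochondrial membrane. Complex I (Nduf genes) takes electrons from NADH and complex II (Sdh genes) from succinate, coenzyme Q carries them to complex III (Uqcr genes and Cyc1), cytochrome c to complex IV (Cox genes), and complexes I, III and IV pump protons that ATP synthase, complex V (Atp5 genes), uses to make ATP. Liver depends on this supply for gluconeogenesis, urea synthesis and lipid metabolism, and a few complex IV subunits have isoforms known mainly from muscle, lung or testis. The prefixes also take in genes that are no subunits: Ndufaf1 to Ndufaf4 are assembly factors of complex I, Cox7a2l is known for joining complexes into supercomplexes, Cox4nb is now called Emc8, Atp5s Dmac2l and Atp5sl Dmac2. Ndufa4, named after complex I, was counted with complex IV, of which it is a subunit.

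Many of these genes are known targets of the transcription factors NRF1 and GABPA, and promoters of some members are printed below. The sequences printed were picked after motif matches were seen: Sdha, the member with the lowest difference in complex II, has 3 NRF1 matches; Cox6b1 has a GABPA match while Cox6b2, its testis isoform and the member with the highest difference, has none; Ndufs8, lowest in complex I, has none. Each is the 250 bases before the start site from RefSeq (GRCm38.p6), all on the minus strand and written 5′ to 3′, at chr13:74350241-74350490, chr7:30626115-30626364, chr7:4753095-4753344 and chr19:3912775-3913024, and capitals mark matches to NRF1 or GABPA.
Sdha: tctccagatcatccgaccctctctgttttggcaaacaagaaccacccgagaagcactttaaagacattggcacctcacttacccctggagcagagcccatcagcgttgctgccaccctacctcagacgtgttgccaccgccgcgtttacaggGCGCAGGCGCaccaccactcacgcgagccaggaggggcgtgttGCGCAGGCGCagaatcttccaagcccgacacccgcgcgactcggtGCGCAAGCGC
Cox6b1: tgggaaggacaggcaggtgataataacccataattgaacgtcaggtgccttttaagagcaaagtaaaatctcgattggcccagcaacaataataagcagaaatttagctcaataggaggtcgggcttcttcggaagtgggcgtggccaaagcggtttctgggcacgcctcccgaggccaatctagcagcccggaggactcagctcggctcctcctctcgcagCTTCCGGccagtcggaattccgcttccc
Cox6b2: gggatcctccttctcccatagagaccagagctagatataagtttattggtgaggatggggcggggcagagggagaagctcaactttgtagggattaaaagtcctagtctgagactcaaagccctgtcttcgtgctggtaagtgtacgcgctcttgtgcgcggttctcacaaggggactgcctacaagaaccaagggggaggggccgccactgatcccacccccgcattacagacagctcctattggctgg
Ndufs8: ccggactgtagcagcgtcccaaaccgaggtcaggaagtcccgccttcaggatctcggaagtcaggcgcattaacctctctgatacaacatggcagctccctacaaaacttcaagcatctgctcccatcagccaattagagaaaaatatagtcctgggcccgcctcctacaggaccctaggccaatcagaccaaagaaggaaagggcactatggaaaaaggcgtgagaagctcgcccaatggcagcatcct
Motifs were searched on both strands of that window in the 74 members and the 27025 genes with a RefSeq promoter. The NRF1 motif, GCGCA, any base and then GCGC, was present in 14 members (18.9%) against 4.23% of all genes. The GABPA motif CCGGAAG was present in 13 members (17.6%) against 7.83%. The YY1 motif AAGATGGC occurred in 2 members (2.7%) against 1.83%, the ERR motif TCAAGGTCA in 1 (1.35%) against 0.422%, and the GC box GGGCGG in 30 (40.5%) against 35.4%. None of the first 4 motifs matched in the 4 tissue-restricted isoforms that have a RefSeq promoter. These isoforms are too few for that to set them apart, since most members lacked each of those motifs. The matches describe letters, not bound sites. The 13 tested members with an NRF1 match had a median difference between groups of -0.15 on the log2 scale, against -0.17 for the 58 other tested members with a promoter; for GABPA the medians were -0.18 over 13 and -0.15 over 58.

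A level here is log2 of a probe's processed signal minus the 75th percentile of that quantity over its array, and is never compared between genes. A gene's level is that of its probe with the highest mean, and the genes tested are those whose probe the scanner software marked as well above background on 4 or 5 arrays of either group. Differences are mulberry minus control, with the standard error (SE) of limma's fit, and a call is an adjusted p (Benjamini-Hochberg over 17847 genes) under 0.05. Of the hepatocyte markers, Ass1, an enzyme of urea synthesis, had a mean level of 8.26 on the control arrays and Tat one of 7.54. Both levels are above the 75th percentile of the array. Markers of other tissues were not set beside them, so the liver label was not tested. Probes so marked made up 54.4% to 62.4% of each array, and the number of arrays limits the precision. Scan day 1 held control 2, 3 and 5 and mulberry 3 and 5, scan day 2 the other arrays, and slide 3 was the one slide with both groups (control 1, control 4 and mulberry 1). Array numbers follow the scanner files. In the deposited gene table the 5 mulberry columns matched the scanner arrays of their own number, but each of the 5 control columns matched a control array of another number: the table's control 1 to 5 followed the scanner's control 5, 1, 2, 3 and 4, with r between 0.95 and 0.99 over 11150 genes for the 10 matched columns and between -0.51 and -0.06 for controls of the same number. Which source carries the right control numbers was not settled, and differences between groups are not touched by it.

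No member passed the threshold between mulberry and control. Of all 17847 genes tested, 0 passed it either (0.0%), and the smallest adjusted p of a member was 0.897. The direction was shared: 82 of the 85 tested members were lower on average in mulberry livers, as were 53.0% of all genes, and 3 were higher. The members' median difference was -0.17 on the log2 scale, against -0.02 for all genes. At an unadjusted p under 0.05 there were 0 lower and 2 higher members, Cox6a2 and Cox6b2, where 2.29% of all genes were lower and 2.89% higher at that level (924 genes, 5.18%, in both directions). No member separated the 5 mulberry from the 5 control arrays without overlap, as 130 genes (0.728%) did. The 95% interval of the difference held 0 for 83 of the 85 members and lay within 1 log2 unit of 0 on both sides for 82. Over all 17847 genes it held 0 for 16923 and lay within 1 log2 unit for 14536. In simulated data of this size, 55 of 100 genes with a true difference of 1 log2 unit were called and 92 of 100 with one of 2. The simulation drew each gene independently, with the same spread in both groups. It tried no difference as small as the members' median, so these rates do not apply to differences of that size. In whole liver, fewer cells of a type and less RNA per cell cannot be told apart.

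**Figure D1:**
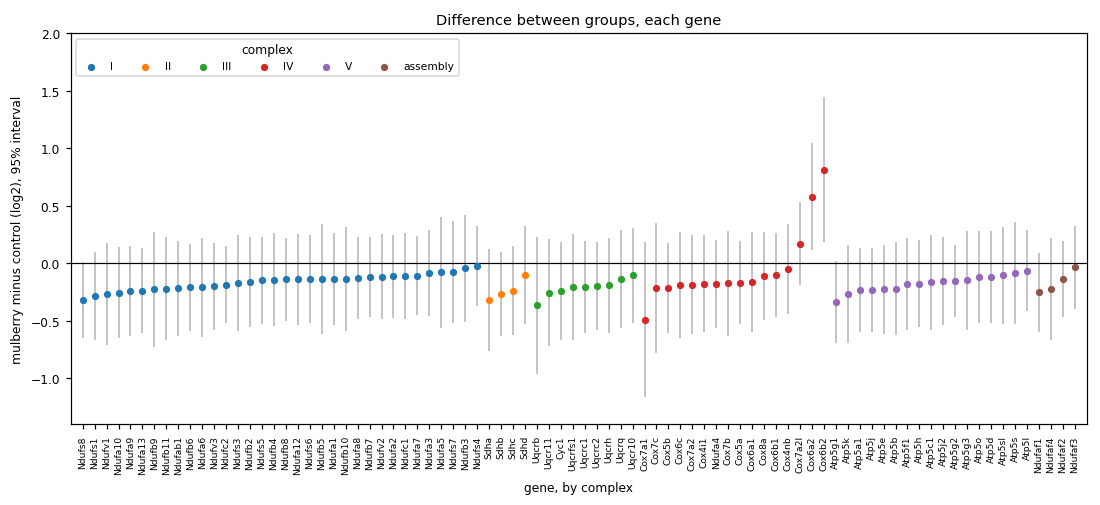
Difference between mulberry and control (log2, vertical axis) for tested genes, grouped and coloured by complex, with complex I assembly factors last; points are limma estimates and bars 95% intervals, 5 arrays per group. Most points lie just under 0 with intervals that hold 0, and Cox6a2 and Cox6b2 are the points whose intervals lie above it.

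Among the mulberry arrays the subunits were lowest on mulberry 1 and 5. Each gene was set against its own mean over the control arrays and averaged over the 74 subunits other than tissue-restricted isoforms. That mean was 0.12, -0.20, 0.09, 0.01 and -0.02 on control 1 to 5 and -0.67, 0.09, 0.20, -0.18 and -0.33 on mulberry 1 to 5. Mulberry 1 and mulberry 5 were thus below every control array, mulberry 4 was within the control range near its lower end, and mulberry 3 was above every control array. The difference of the array means was -0.18 ± 0.16, with an SD of 0.12 over the control and 0.35 over the mulberry arrays. This SE comes from the variances of the array means in each group, not from limma's fit.

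On mulberry 1 all 74 subunits lay below their control mean and 73 below each of the 5 control arrays. Deviations there ran from -1.18 for Uqcrb to -0.14 for Atp5l, with a median of -0.68, or 0.623 times the control level. On mulberry 5 all 74 were below the control mean and 60 below every control, with a median of -0.33. On mulberry 3, 8 of 74 were below the control mean, 39 were above every control array, and the median was 0.20. Genes below or above every control array were not counted over all genes. These counts are therefore not set against the shift of all genes on the same arrays. These sizes depend on the scaling. The 75th percentile of the signal, whose log2 is taken off, was 283, 162, 153, 250 and 222 on mulberry 1 to 5. On the controls it ran from 166 to 232. It was highest on mulberry 1 and lowest on mulberry 3, the arrays with the lowest and the highest subunit mean. How far the subunit means follow this reference was not tested. The median deviation of all genes tested was -0.23 on mulberry 1, -0.14 on mulberry 5 and 0.09 on mulberry 3. After quantile normalization the subunit medians on mulberry 1, 5 and 3 were -0.31, -0.15 and 0.07. Those of all genes were then -0.14, -0.11 and 0.03. Of the 85 members, 77 had their lowest level of all 10 arrays on mulberry 1 (90.6%), where 33.5% of all genes had theirs; after quantile normalization this held for 61 members and 27.1% of all genes. The subunits varied together from array to array: the median SD within groups was 0.28 per gene and 0.11 once each array's mean over the 74 subunits was taken off, while for all genes taking off the same mean left it at 0.33 from 0.32.

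**Figure D2:**
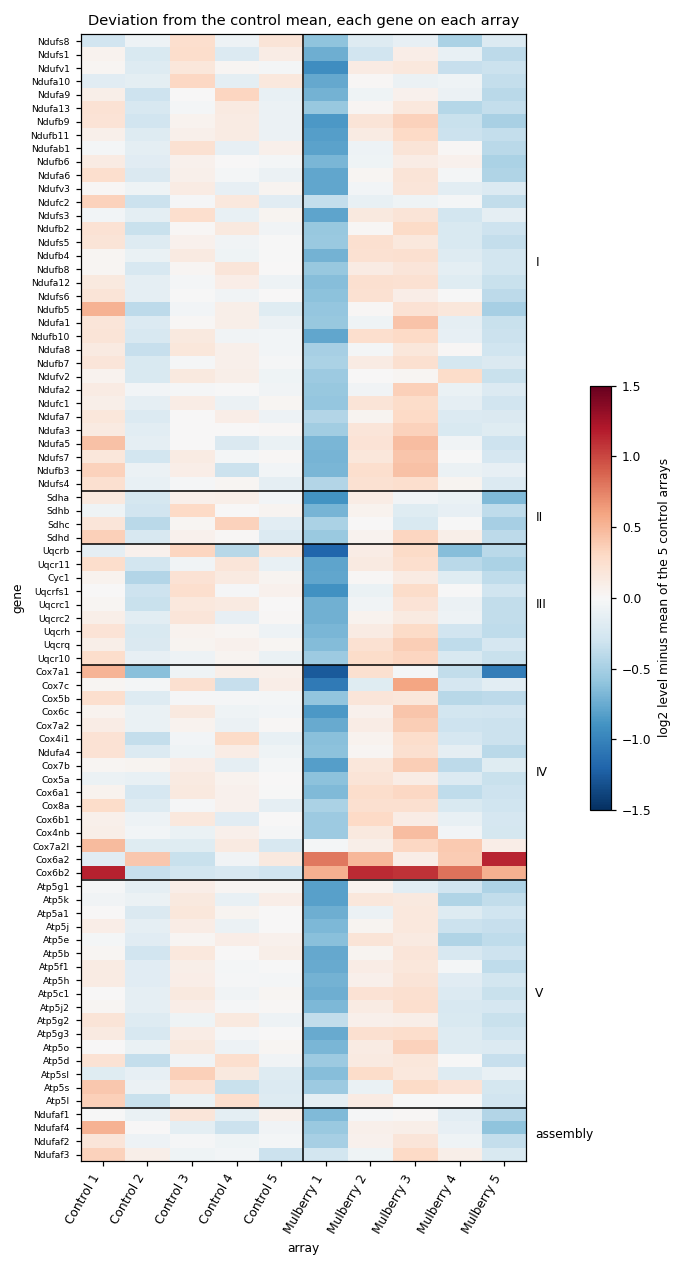
Deviation of tested genes (rows, by complex) from its own mean over the 5 control arrays (log2, colour) on each of the 10 arrays (columns). Nearly the whole mulberry 1 column is low, mulberry 5 is low to a smaller degree and mulberry 3 is high, while Cox6b2 and Cox6a2 stand out in the opposite direction.

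Markers of other cells differed on the same arrays. The mean deviation of 11 tested hepatocyte markers of 14 listed was -0.99 on mulberry 1 and -0.40 on mulberry 5, and between -0.25 and 0.10 on the other mulberry arrays; over the controls it ran from -0.44 to 0.28. That of 17 tested macrophage markers of 19 was 2.27 on mulberry 1 and 2.19 on mulberry 5, between -0.77 and 0.13 on the other mulberry arrays, and between -0.82 and 1.07 over the controls. The 14 tested lymphocyte markers of 16 stood at 1.88 and 1.57 on mulberry 1 and 5 and between -0.35 and 0.69 on the controls. Stellate markers (11 of 11 tested) were also high on both arrays, at 1.07 and 1.17, endothelial markers (10 of 10) were at 0.22 on each, and red cell markers (3 of 7) at -0.36 and -0.37. Itgam among the macrophage and Cd8a among the lymphocyte markers had probes but did not pass the filter. On control 1 to 5 the macrophage means were -0.46, 1.07, -0.82, 0.32 and -0.11. The lymphocyte means there were -0.31, 0.69, -0.34, 0.31 and -0.35. The subunit means there were 0.12, -0.20, 0.09, 0.01 and -0.02. A link between marker and subunit levels was not tested. Mulberry 1 and 5 were the mulberry arrays with the lowest subunit means, so a higher members' median without them follows from that choice. Without mulberry 1 and 5, 24 members were lower on average, 61 were higher, and the median was 0.05 against 0.06 for all genes. Without mulberry 1 alone, 65 were lower and the median was -0.04. Within scan day 1 the median was 0.01 with 42 members lower, and within scan day 2, which holds mulberry 1, it was -0.30 with 83 lower.

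**Figure D3:**
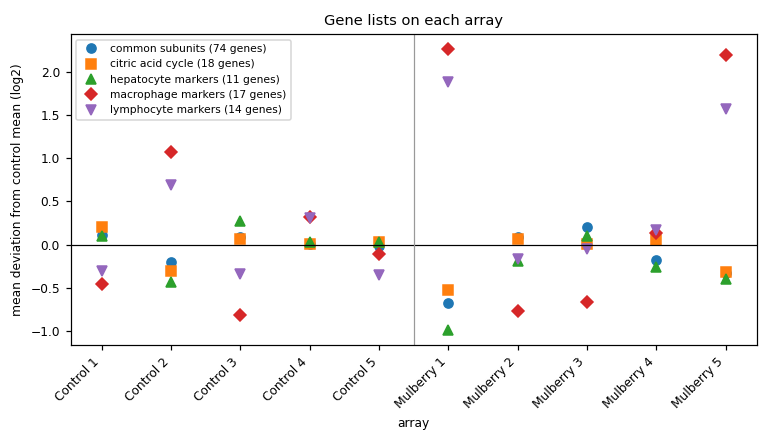
Mean deviation from the control mean (log2, vertical axis) on each of the 10 arrays for the 74 common subunits and 4 other gene lists; each point is 1 list on 1 array. On mulberry 1 and mulberry 5 macrophage and lymphocyte markers are high where subunits, citric acid cycle enzymes and hepatocyte markers are low.

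In complex I all 35 tested members were lower on average, with differences from -0.32 to -0.02 and a median of -0.14. Its 7 core subunits, which carry the flavin and iron-sulfur centres or line the quinone site, had a median of -0.24, and the 28 accessory subunits one of -0.14. The Ndufa members (11) and the Ndufb members (10), accessory subunits spread over the complex, had medians of -0.13 and -0.14.

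Ndufs8, a core subunit with iron-sulfur clusters, had the lowest difference of complex I and its smallest p. Its level was 1.75, 1.96, 2.29, 1.96 and 2.22 on control 1 to 5 and 1.43, 1.84, 1.91, 1.56 and 1.83 on mulberry 1 to 5. All 5 mulberry arrays were below the control mean, but mulberry 2, 3 and 5 lay inside the control range. The difference was -0.32 ± 0.15 (SE) and stayed between -0.47 and -0.24 under 27 other ways of processing, -0.26 without mulberry 1 and 5, with adjusted p from 0.193 to 1 over them (limma). Some of these 27 ways leave every member's difference as reported, as set out further on. Ndufc2 was the other tested member with all 5 mulberry arrays below the control mean, at -0.18 ± 0.15. Ndufs4, an accessory subunit needed to complete assembly, had the highest difference of the complex, -0.02 ± 0.16. It stood at 5.37, 5.01, 5.11, 5.16 and 4.99 on the controls and at 4.69, 5.36, 5.37, 5.17 and 4.92 on the mulberry arrays, with mulberry 1 and 5 below all controls, mulberry 2 and 4 among them and mulberry 3 level with the highest control, just above it.

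Among the other core subunits, Ndufs1 was at -0.28 ± 0.17, Ndufv1, which binds NADH, at -0.26 ± 0.20, and Ndufs7 at -0.07 ± 0.20. Ndufa11 had no matched probe; the deposited gene table gave it -0.06 ± 0.12. The 4 assembly factors were at -0.25 (Ndufaf1), -0.13 (Ndufaf2), -0.03 (Ndufaf3) and -0.22 (Ndufaf4), each with an interval holding 0.

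Complex II, which is also an enzyme of the citric acid cycle, had all 4 subunits lower, with a median of -0.25, the lowest of the 5 complexes. Sdha, the flavoprotein, was at 4.30, 3.88, 4.22, 4.24 and 4.11 on control 1 to 5 and at 3.26, 4.26, 4.10, 4.05 and 3.49 on mulberry 1 to 5. Mulberry 1 and 5 were below all controls and the other mulberry arrays were among them. The difference was -0.32 ± 0.20, and -0.01 without mulberry 1 and 5. Sdhb, the iron-sulfur subunit, was at 5.53, 5.31, 5.89, 5.60 and 5.64 on the controls and at 4.89, 5.65, 5.41, 5.47 and 5.22 on the mulberry arrays, again with mulberry 1 and 5 below all controls (difference -0.27 ± 0.17). Of the membrane anchors, Sdhc differed by -0.24 ± 0.18 and Sdhd by -0.10 ± 0.19. Sdhd stood at 6.10, 5.51, 5.80, 5.76 and 5.54 on the controls and at 5.18, 5.79, 6.07, 5.82 and 5.35 on the mulberry arrays, where mulberry 2 to 4 were inside the control range.

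In complex III all 9 members were lower, from -0.37 to -0.10, with a median of -0.20. Of the catalytic subunits coded in the nucleus, Cyc1, cytochrome c1, differed by -0.24 ± 0.19 and Uqcrfs1, the Rieske iron-sulfur protein, by -0.21 ± 0.21. Uqcrb, a small subunit near the quinone site, had the lowest difference, -0.37 ± 0.27, and spread widely in both groups. It was at 5.92, 6.12, 6.38, 5.63 and 6.21 on the controls and at 4.87, 6.17, 6.34, 5.41 and 5.65 on the mulberry arrays, with mulberry 1 and 4 below all controls. Uqcr10, the highest, was at 7.63, 7.25, 7.29, 7.41 and 7.27 on the controls and at 6.82, 7.65, 7.69, 7.14 and 7.04 on the mulberry arrays. Its mulberry arrays lay on both sides of the controls, 3 below all of them and 2 above, for a difference of -0.10 ± 0.19.

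In complex IV the 11 ubiquitous subunits, Ndufa4 included, were all lower, from -0.21 to -0.10, with a median of -0.18; each interval held 0. Cox4i1 differed by -0.18 ± 0.19, Cox5a by -0.17 ± 0.16 and Cox7c, whose within-group spread was large, by -0.21 ± 0.26. Of the 7 tissue-restricted isoforms, Cox4i2 (known from lung), Cox7b2 and Cox8c (testis) were not well above background on any array, and Cox8b (muscle) was so on 1 mulberry array. The 3 that were tested were well above background on all 10 arrays and had the widest differences of all members in either direction.

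Cox6b2, known from testis, was at -0.14, -1.64, -1.57, -1.53 and -1.59 on control 1 to 5 and at -0.76, -0.18, -0.21, -0.48 and -0.77 on mulberry 1 to 5. Of the controls, 4 lay close together below every mulberry array, and control 1 lay above every mulberry array. The difference was 0.82 ± 0.29 (SE), with an adjusted p of 0.897 by limma; it was higher than the control mean on 5 of 5 mulberry arrays. Without control 1 it was 1.105 with an adjusted p of 0.125, the smallest of 27 alternatives that reached up to 1. Taken by scan day it was 1.11 on day 1 and 0.36 on day 2, and on slide 3, which holds control 1, it was 0.08. Its ubiquitous counterpart Cox6b1 differed by -0.10 ± 0.17.

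Cox6a2, known from heart and skeletal muscle, was dim, at -3.21, -2.63, -3.37, -3.09 and -2.89 on the controls and at -2.25, -2.54, -2.94, -2.66 and -1.90 on the mulberry arrays. Mulberry 1, 2 and 5 were above all controls, and mulberry 3 and 4 were within them. The difference was 0.58 ± 0.21 (adjusted p 0.897, limma), higher than the control mean on 5 of 5 mulberry arrays and positive under all 27 alternatives, from 0.33 without mulberry 1 and 5 to 0.90 with slide as a block. Its counterpart Cox6a1 differed by -0.16 ± 0.20. Cox7a1, known from muscle and brown fat, went the other way: 2.57, 1.43, 1.99, 2.14 and 2.13 on the controls and 0.79, 2.30, 2.02, 1.68 and 1.02 on the mulberry arrays. Mulberry 1 and 5 were below all controls and the others among them. The difference of -0.49 ± 0.31 was the lowest of all members and was -0.05 without mulberry 1 and 5, while Cox7a2 differed by -0.19 ± 0.20. Cox7a2l, the third member above 0, was at 0.17 ± 0.17 with all 5 mulberry arrays inside the control range.

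**Figure D4:**
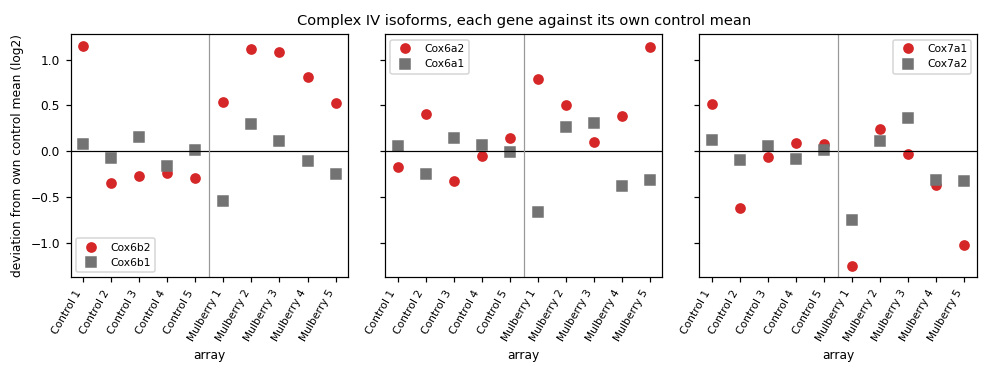
Deviation of 3 tissue-restricted complex IV isoforms (circles) and their ubiquitous counterparts (squares) from their own control means (log2, vertical axis) on each of the 10 arrays; each point is 1 array. Cox6b2 is high on all 5 mulberry arrays and on control 1, Cox6a2 is above its control mean on all 5 mulberry arrays, and Cox7a1 is low on mulberry 1 and 5.

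In complex V all 17 members were lower, with a median of -0.16. That count and median include Atp5s and Atp5sl, which are no subunits and are in none of the groups that follow. The 5 subunits of the catalytic F1 head were between -0.23 and -0.12 with a median of -0.22, the 3 genes of the proton-carrying c ring at -0.33 (Atp5g1), -0.15 (Atp5g2) and -0.15 (Atp5g3), and the 7 stalk and membrane subunits at a median of -0.18. The c ring genes code for the same mature protein from different mRNAs, and cross-hybridisation between their probes was not tested. Atp5g1, with the lowest difference of the complex, was at 5.94, 5.83, 6.06, 6.00 and 5.99 on the controls and at 5.15, 6.02, 5.80, 5.67 and 5.50 on the mulberry arrays. Mulberry 2 was among the controls and the other 4 mulberry arrays were below all of them. The difference of -0.33 ± 0.16 kept its sign under all 27 alternatives, down to -0.13 without mulberry 1 and 5. Atp5l, subunit g of the membrane part, was the highest at -0.06 ± 0.16. It was at 6.21, 5.52, 5.75, 6.10 and 5.66 on the controls and at 5.71, 5.97, 5.85, 5.85 and 5.56 on the mulberry arrays, all inside the control range.

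Probes of a member mostly gave the same sign. Of 109 tested probes of members, 103 were lower on average, with a median difference of -0.17, and 0 passed the threshold (0.0% of 23243 probes did). Tested probes numbered more than 1 for 20 members; their differences had the same sign in 17 and differed in sign in Atp5sl, Cox4nb and Atp5s, all with at least 1 probe within 0.06 of 0. The widest gap was in Atp5b, the catalytic beta subunit, whose 3 probes gave -0.22 ± 0.18, -0.29 ± 0.17 and -0.34 ± 0.22. The probe standing for Atp5b was at 8.21, 7.89, 8.33, 8.18 and 8.27 on the controls and at 7.41, 8.22, 8.36, 7.93 and 7.86 on the mulberry arrays, and each of the 3 probes was lowest on mulberry 1.

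Subunits coded by mitochondrial DNA could be followed only in the deposited gene table, which names 4 of the 13 and whose values are here on a log2 scale without the 75th percentile taken off. ND4, a complex I subunit, differed by -0.30 ± 0.23, CYTB of complex III by -0.30 ± 0.19, COX2 of complex IV by -0.10 ± 0.09 and ATP6 of complex V by -0.32 ± 0.12. All 4 were lower on average and none passed the threshold, with adjusted p of 0.889 or more (limma, 0.0% of 21193 rows called). ATP6 alone of the 4 had an unadjusted p under 0.05, as 4.9% of the table's rows did. ATP6 ranged from 14.88 to 15.28 over the control columns and was 14.70, 14.88, 14.80, 15.04 and 14.45 on mulberry 1 to 5, so the groups overlapped. In the same table the nuclear-coded members had a median of -0.07.

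Genes that work with the chain were mostly lower too, beside 53.0% of all genes, and none passed the threshold. Of the assembly factors, 14 of 16 tested were lower for complex I (median -0.12), 7 of 8 for complexes II and III (-0.10), 18 of 22 for complex IV (-0.10) and 5 of 6 for complex V (-0.12). Members among the assembly factors, such as Ndufaf1 to Ndufaf4, were not taken out of these counts. Ndufaf5, with 5 of 5 mulberry arrays below its control mean, was at -0.27 ± 0.14, Ndufaf6 at -0.33 ± 0.18, Cox18, which inserts COX2, at -0.27 ± 0.15, Cox11, a copper factor, at -0.25 ± 0.15, and Coa4 on the other side of 0 at 0.27 ± 0.20. Among the mobile carriers and coenzyme Q genes 13 of 16 were lower (median -0.14), with cytochrome c (Cycs) at -0.23 ± 0.15 and Coq8a at -0.47 ± 0.23. Enzymes of the citric acid cycle and pyruvate dehydrogenase were lower in 17 of 18 (median -0.16), with citrate synthase (Cs) at -0.21 ± 0.12 and below its control mean on 5 of 5 mulberry arrays. Inner membrane carriers and uncouplers were split, 6 lower and 5 higher, and the uncoupling protein gene Ucp2, which macrophages also express, was at 0.90 ± 0.57. A link between Ucp2 and macrophage marker levels was not tested.

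Of the regulators, 14 of 16 were lower with a median of -0.05. Ppargc1a, the coactivator of mitochondrial biogenesis, differed by -0.50 ± 0.30, with 4 of 5 mulberry arrays below the control mean. Nrf1 was at 0.00 ± 0.15, Gabpa at -0.15 ± 0.15, Esrra at -0.02 ± 0.19 and Tfam, which packages and transcribes mitochondrial DNA, at -0.13 ± 0.17. Each of these intervals held 0.

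**Figure D5:**
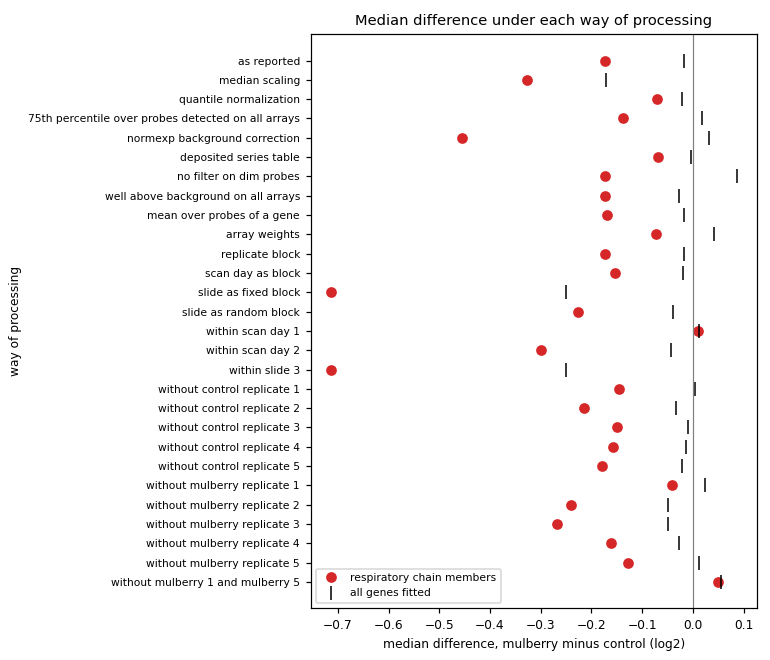
Median difference between mulberry and control (log2, horizontal axis) of the members (points) and of all genes fitted (ticks) under each way of processing (vertical axis). The members' median runs from -0.71, within slide 3 and with slide as a fixed block, to 0.05, without mulberry 1 and 5.

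How far below 0 the members stood depended on the scaling and on the arrays included. The median was -0.07 after quantile normalization and in the deposited gene table, -0.33 with each array's median as the reference (where the median of all genes was -0.17) and -0.46 after normexp background correction, against 0.03 for all genes. It was lowest where mulberry 1 weighed most, at -0.71 within slide 3, in which mulberry 1 is the one mulberry array. The 27 alternatives are not all separate. The replicate block, no filter on dim probes and a filter asking for all arrays left the members' differences as reported. Slide as a fixed block gave the same differences as within slide 3. A total of 22 of the 85 members were lower under all 27 alternatives, Cox6a2 and Cox6b2 were higher under all, and the other 61 took either sign. Cox6a2 and Cox6b2 were also the members with the highest differences as reported. How many of all genes kept their sign was not counted. No member was called under any alternative.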

How the data were processed

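The deposited Feature Extraction tables hold fluorescence intensity per spot, corrected for background on each array, per the file headers. Per the submitters' processing notes they come from Agilent Feature Extraction 10.1.1.1. The deposited gene table holds a linear intensity per symbol; the authors' normalization and probe choice are not given in the sources used here, but the members' group differences in it were within 0.03 of quantile-normalized scanner values (log2). Its column medians were between 5.10 and 5.31 (log2), and its control columns carried other numbers than the matching scanner files.

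Of 43379 spots that are not controls, outlier flags were left out and spots of a probe averaged, giving 41174 probes; 46 lacking a value on at least 1 array were left out. Transcript accessions were matched to RefSeq (GRCm38.p6), which named 61.0% of 41128 probes. No spot was saturated, and 0 columns were left unused as belonging to other samples. The comparison of 5 control and 5 mulberry arrays used limma 3.58.1 (lmFit, eBayes, two-sided) in R 4.3.3 with data.table (version 1.17.8); plots used Python 3.11.15 and matplotlib 3.10.9. Normexp (offset 50) used the median in place of the mean spot signal, which the files lack.

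The labels state no pairing. With the scanner files' numbers, correlations of same-numbered deviations were of mixed sign, at -0.26, -0.44, 0.41, 0.01 and -0.03. The deposited gene table numbers the controls otherwise, and pairing by its numbers was not tested. The members, lists and alternatives were chosen with earlier results of these data known. Named with values in every array were, per complex, the tested members with the highest and lowest difference and the smallest p, the member whose probes differ most, and the tissue-restricted isoforms; of other lists, up to 3 genes by smallest p, with Ppargc1a, Nrf1, Gabpa, Tfam, Esrra and Cycs whatever their values. Each array is 1 mouse, per the labels' protocols, so the spread within a group is between animals. The values of 1 member are not reported here, in the text or the plots; counts and medians include it.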

Additional observations from a re-analysis of the deposited data

Results flagged for a closer look

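Within a group of 5 arrays, an array was singled out where its gap to the nearest other exceeded 0.71 of the group's range. Of 182 sets examined, 5 met this, where chance gives about 9. Cox6b2 on control 1 was at -0.14, with the other controls between -1.64 and -1.53, a gap of 0.926 of the range; the difference of Cox6b2 rests on 4 controls that lie together, and is given above with and without control 1. Control 1 was also the highest control for Ndufa2 (6.41 against at most 6.28, gap 0.748) and for Ndufaf2 (3.19 against at most 2.99, gap 0.808). Control 2 was the lowest for Cyc1 (5.79 against at least 6.26, gap 0.731) and for Uqcrq (8.28 against at least 8.53, gap 0.788). Cyc1 and Uqcrq both belong to complex III, and control 2 had the lowest subunit mean of the controls. The control columns of the deposited gene table carry other numbers than the scanner files, so control 1 and 2 here are those of the scanner files.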

How the results depend on the processing

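The count of genes called was 0 in the analysis as reported and 1 with array weights, without mulberry 1 and without mulberry 1 and 5 together; leaving out 1 array in turn gave 0 to 1. No called gene was a member. The members' median of -0.17 became -0.46 after normexp and -0.71 with slide as a fixed block and within slide 3. By complex, I to V, normexp gave -0.46, -0.55, -0.51, -0.43 and -0.45, and both slide settings gave -0.70, -0.75, -0.81, -0.72 and -0.71. Members lower numbered 42 within scan day 1 and 24 without mulberry 1 and 5. Leaving out 1 array moved the median between -0.27 and -0.04. Of 2295 member differences under alternatives, 163 had another sign than reported, 58 of them without mulberry 1 and 5 and 40 within scan day 1. The cause was not tested, except that slide 3 holds 1 mulberry array. Genes at an unadjusted p under 0.05 numbered 924 as reported, 2137 with median scaling, 2688 with array weights, 3629 with slide as a fixed block and 324 within scan day 2. With a replicate block by the scanner files' numbers, 942 genes had an unadjusted p under 0.05, 0 were called and the members' median was -0.17. The 5 arrays per group limit all differences.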
